A study of Mus musculus with 32 samples.

Results

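The genes described here are 8 small calcium-, membrane- and sugar-binding protein genes of effector T cells: the S100 genes S100a4, S100a6, S100a10 and S100a11, the annexins Anxa1 and Anxa2, and the galectins Lgals1 and Lgals3. They were found by their symbols in the deposited RNA table, which holds 16741 genes, and all 8 were present. The values come from 31 bulk RNA libraries of sorted donor T cells in mice with graft-versus-host disease (GVHD), in which T cells of C57Bl6 donors attack the tissues of Balb/c recipients with other major histocompatibility genes. CD4 conventional T cells and CD8 T cells were each taken from spleen and lymph nodes before transplantation (day 0, 2 libraries each), from syngeneic recipients (3 each), from allogeneic recipients with GVHD (4 each) and from allogeneic recipients that were also given regulatory T cells (Treg) on day 0, called Treg-treated here (4 each). Treg themselves gave 2 libraries at day 0 and 3 from Treg-treated recipients. The later libraries carry day 6 in their titles, but the design text names day 8. The sort markers, the conditioning of the recipients, the strain of the syngeneic recipients, the ages of the mice and whether a library pools animals are not given in the sources used here, so p-values measure the spread between these libraries only, which may be technical. JL019 and JL027 are the prefixes of the replicate labels, whose meaning is not given, and values within each prefix are added where they bear on a result.

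S100 proteins are small proteins that mostly act by binding a partner when calcium rises, and annexins are proteins that bind phospholipid membranes in the presence of calcium. The families meet in fixed pairs: S100a10 joins Anxa2 into a complex at the plasma membrane that also carries the scaffold protein Ahnak and binds plasminogen activator, and S100a11 binds Anxa1. Galectins are lectins that bind galactose-containing sugars on surface glycoproteins and can crosslink receptors of the T cell. In T cells, these genes are known as low in naive cells and high in effector and memory cells, and several of them, Anxa1, Lgals3 and S100a11 among them, are also strongly expressed by neutrophils, monocytes or macrophages.

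The 4 S100 genes lie on mouse chromosome 3 in 2 neighbouring pairs (build GRCm38.p6, RefSeq). S100a4 (ENSMUSG00000001020, chr3:90603770-90606045) is 6848 bases from S100a6 (ENSMUSG00000001025, chr3:90612894-90614414), and S100a11 (ENSMUSG00000027907, chr3:93520496-93526288) is 28828 bases from S100a10 (ENSMUSG00000041959, chr3:93555117-93564645). Anxa2 (ENSMUSG00000032231) is at chr9:69453683-69491792, Lgals3 (ENSMUSG00000050335) at chr14:47373860-47386167, Lgals1 (ENSMUSG00000068220) at chr15:78926725-78930465 and Anxa1 (ENSMUSG00000024659) at chr19:20373434-20390671. The genes differ in length: S100a4, S100a6, S100a11 and Lgals1 had a genomic span at or under 6757 bases, the lower quartile of the 15855 genes of the table with a span, whereas Anxa2 spans 38110 bases, longer than 68.1% of them.

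Since these genes moved together across the libraries, their promoters were searched for letters of common promoter elements. RefSeq windows of 300 bases, 250 before to 50 after the start, were at hand for 6 of the 8 genes, not for S100a10 and Lgals1. The letters TGANTCA, to which AP-1 factors of stimulated T cells bind, occurred in 2 of the 6 windows (S100a11 and Anxa2), against 7.81% of all 32851 windows. TATAAA, the TATA box, occurred in 3 of 6 (S100a4, Anxa1 and Anxa2) against 13.6%. GGGCGG, the GC box, occurred in 3 of 6 (S100a11, Anxa2 and Lgals3) against 35.7%, and a loose NF-kB motif, GGG and CC around 5 free bases, in 6 of 6 against 50.8%, in part at bases that also match the GC box. TCACACC, a site of T-box factors, was in none of the 6 and in 3.98% of all windows. Both strands were searched, and a match describes the letters alone. The 250 bases before the start of the 4 genes with the AP-1 or TATA letters are printed here 5′ to 3′ in the direction of the gene, with those letters in capitals, to show that S100a4 and Anxa1 share TATAAA near the start, S100a11 has TGAGTCA at 2 places, and Anxa2 holds both elements. They are chr3:93520246-93520495 (plus strand), chr9:69453433-69453682 (plus), chr3:90603520-90603769 (plus) and chr19:20390672-20390921 (minus) of GRCm38.p6.
S100a11: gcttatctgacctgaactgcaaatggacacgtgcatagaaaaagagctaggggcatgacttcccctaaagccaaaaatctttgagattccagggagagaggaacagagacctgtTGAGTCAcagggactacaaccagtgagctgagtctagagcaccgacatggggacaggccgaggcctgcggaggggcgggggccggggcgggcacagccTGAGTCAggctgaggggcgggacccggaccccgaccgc
Anxa2: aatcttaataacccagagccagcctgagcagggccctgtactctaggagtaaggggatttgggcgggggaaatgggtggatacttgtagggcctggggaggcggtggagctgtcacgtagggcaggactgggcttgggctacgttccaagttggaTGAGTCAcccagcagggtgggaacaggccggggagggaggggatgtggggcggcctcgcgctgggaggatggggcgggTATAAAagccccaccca
S100a4: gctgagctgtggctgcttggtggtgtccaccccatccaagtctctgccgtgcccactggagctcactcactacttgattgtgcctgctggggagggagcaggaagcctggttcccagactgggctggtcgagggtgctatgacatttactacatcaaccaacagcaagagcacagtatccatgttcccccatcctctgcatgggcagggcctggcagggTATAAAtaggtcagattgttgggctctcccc
Anxa1: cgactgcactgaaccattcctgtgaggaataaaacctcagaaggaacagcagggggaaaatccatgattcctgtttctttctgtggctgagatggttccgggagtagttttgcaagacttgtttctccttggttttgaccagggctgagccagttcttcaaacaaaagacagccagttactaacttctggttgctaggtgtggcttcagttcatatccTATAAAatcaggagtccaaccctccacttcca

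The values are counts that the authors normalised between libraries, so they compare a gene across libraries and not one gene with another. Their mean per gene ran from 1227 to 2385 over the 31 libraries, and the read depth is unknown. The CD4 and CD8 libraries carried their own coreceptor, with Cd4 between 8722 and 21480 in all but 1 CD4 library and between 8.76 and 92.8 in CD8 libraries. The CD4 syngeneic library JL019-2 stood apart: its Cd4 was 1659, and the summed value of 14 myeloid marker genes was 5096590, against 112413 and 126510 in the other CD4 syngeneic libraries and at most 118654 in the other groups. None of the 14 was at 0 in it. Lyz2, lysozyme of macrophages and neutrophils, reached 825480, and S100a8, a granulocyte protein, 1511210. In the libraries labelled Treg, Foxp3, the defining transcription factor of Treg, was 197.7 and 442.4 at day 0, below the 977.9 and 1145 of day 0 CD4 cells. After transplantation it was 264.7 to 293.4 in Treg, above the 126.8 to 178.0 of CD4 cells from the same Treg-treated group and below the 337.4 to 578.5 of CD4 allogeneic libraries; 3 of the 4 CD8 allogeneic libraries were above those Treg as well (333.5, 335.1 and 452.7). Other Treg genes, chosen after Foxp3 was seen, were high in them: Ikzf2 lay between 11615 and 19287 in the 5 Treg libraries and at most 1770 in the 26 others. Calls and list counts of comparisons that use the CD4 syngeneic group are given with and without its library JL019-2. The order of group means and the correlations leave it out. JL019-2 also enters the spread shared by all 17 comparisons, and so the SE and adjusted p of each. The other comparisons are not given without it alone, so their calls may rest on it too. In such bulk libraries, more cells of a kind and more RNA per cell cannot be told apart.

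**Figure D1:**
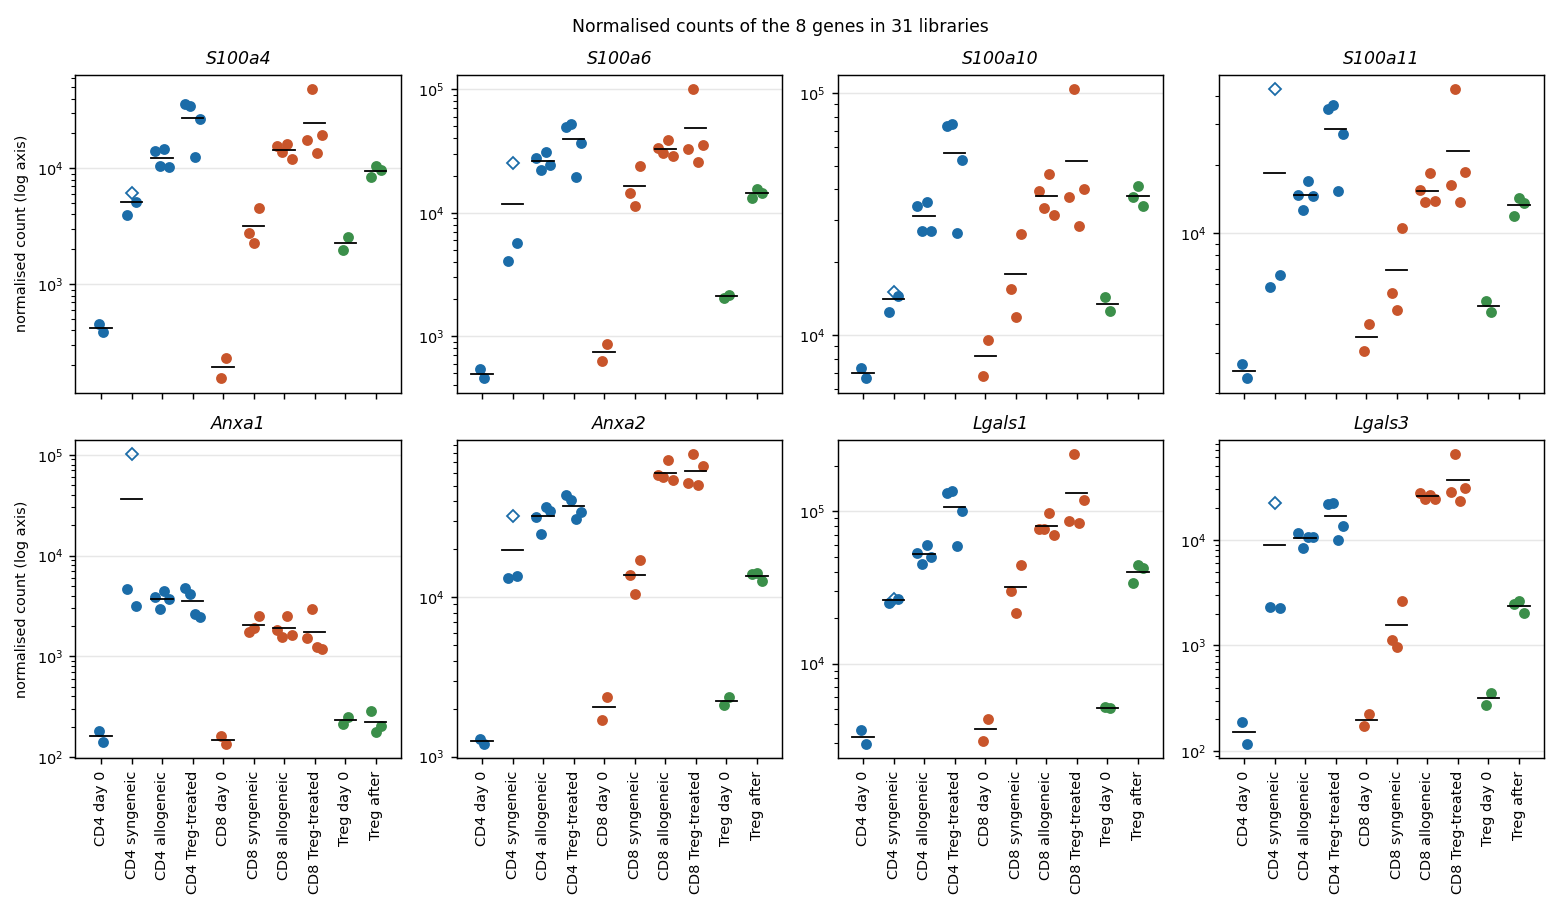
Normalised counts (log axis) of the 8 genes in each of the 31 libraries, by cell type and recipient group; black lines are group means, the open diamond is the CD4 syngeneic library JL019-2, and Treg after stands for Treg taken from Treg-treated recipients. Apart from Anxa1, each gene is lowest at day 0 and highest in allogeneic or Treg-treated libraries. Anxa1 stays low in all 5 Treg libraries.

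From day 0 to the allogeneic recipients, all 8 genes rose in CD4 cells and all 8 in CD8 cells. Across all genes, limma called 14.4% higher and 9.61% lower in CD4 cells, and 16.3% higher and 14.2% lower in CD8 cells (Benjamini-Hochberg adjusted p under 0.05). The median log2 change of the 8 genes was 4.59 in CD4 cells and 4.68 in CD8 cells, against -0.04 and -0.13 over all genes. A gene was said to rise or fall only where it passed that test, and a log2 change is the first named group minus the second on log2(value + 1), which understates changes of low genes. Groups recur in several comparisons, which are therefore not independent.

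Among the S100 genes, S100a4, which binds non-muscle myosin, was 455.5 and 385.1 in the day 0 CD4 libraries. It was 13977, 10493, 14752 and 10232 in the CD4 allogeneic libraries, a log2 change of 4.86 ± 0.39 (SE; adjusted p = 1.7e-10). The lowest allogeneic library was far above the higher day 0 library. In CD8 cells S100a4 was 153.9 and 232.8 at day 0 and reached 15735, 13712, 16343 and 11993, a log2 change of 6.24 ± 0.39 (adjusted p = 1.76e-12). S100a6, a calcium sensor of proliferating cells, rose from 496.7 ± 59.98 (SD, n = 2) to 26265 ± 3890 (SD, n = 4) in CD4 cells and from 749.3 ± 169 (n = 2) to 33030 ± 4374 (n = 4) in CD8 cells, log2 changes of 5.72 ± 0.50 and 5.47 ± 0.50. S100a10 and S100a11 changed least of the 8 in both cell types, and they were the S100 genes with the higher day 0 values relative to their own later values. S100a10 rose by a log2 of 2.14 ± 0.38 in CD4 and 2.21 ± 0.38 in CD8 cells, and S100a11 by 2.56 ± 0.52 and 2.13 ± 0.52. The CD8 call of S100a11 depended on 1 day 0 library, with an adjusted p of 0.0506 without JL019.

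Of the annexins, Anxa2, the membrane partner of S100a10, was 1292 and 1201 in day 0 CD4 libraries. It reached 31673, 24943, 36719 and 34975 in CD4 allogeneic libraries, a log2 change of 4.67 ± 0.28 (adjusted p = 8.52e-13). In CD8 cells it went from 1705 and 2364 to 58320, 56536, 73010 and 54112, a log2 change of 4.90 ± 0.28 (adjusted p = 2.98e-13). The change of Anxa2 was above that of its partner S100a10 in both cell types. Anxa1, which binds formyl peptide receptors and dampens inflammation, was 183.6 and 143.0 in day 0 CD4 libraries and 3868, 2962, 4431 and 3677 in allogeneic ones, a log2 change of 4.503 ± 0.72 (adjusted p = 2.52e-05). In CD8 cells it was 163.1 and 135.2 at day 0 and 1831, 1570, 2543 and 1618 later, a log2 change of 3.63 ± 0.72 (adjusted p = 3.22e-04). Both rises of Anxa1 were seen in every allogeneic library, beside a myeloid marker sum that went from between 1303 and 2059 to between 7935 and 15908 in CD4 cells and from between 6363 and 6719 to between 7927 and 13849 in CD8 cells; the part of these markers in the rise was not tested.

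Of the galectins, Lgals1, which binds surface glycoproteins such as Ptprc (CD45) and can trigger T-cell death, was 3642 and 2960 in day 0 CD4 libraries. It reached 53609, 45336, 59870 and 49894 in CD4 allogeneic libraries, a log2 change of 3.98 ± 0.33 (adjusted p = 4.08e-10), and rose from 3696 ± 852 (SD, n = 2) to 80413 ± 12485 (SD, n = 4) in CD8 cells, by 4.45 ± 0.33. Lgals3, the galectin that holds a long tail beside its sugar-binding domain, rose most of the 8 genes in both cell types. It was 186.9 and 117.0 in day 0 CD4 libraries and 11547, 8384, 10581 and 10604 in allogeneic ones, a log2 change of 6.10 ± 0.57 (adjusted p = 3.68e-09). In CD8 cells it went from 174.3 and 223.9 to 27737, 24312, 26649 and 24080, a log2 change of 7.01 ± 0.57 (adjusted p = 3.01e-10). Within the JL019 libraries the Lgals1 and Lgals3 changes kept their calls; within that prefix S100a11 and Anxa1 did not pass, with adjusted p of 0.171 and 0.0751 in CD4 cells and 0.113 and 0.0966 in CD8 cells. Anxa1 in CD8 cells also missed with the replicate label as a fixed block (3.02, adjusted p = 0.0539). With the log2 of the library's mean value as a covariate all 8 genes were still called in both cell types. Among the changes that became smaller was that of S100a11 in CD4 cells (1.51 in place of 2.56). In CD8 cells they included S100a11 (0.72 in place of 2.13), Anxa1 (2.06 in place of 3.63) and S100a10 (1.29 in place of 2.21). The summed value of 8 erythroid marker genes was 31730 and 35897 in the day 0 CD8 libraries and between 580 and 14826 in the CD8 allogeneic ones, against 749 to 1447 and 465 to 10822 in CD4 cells. The B cell marker sum went from between 2022 and 2713 to between 1152 and 1279 in CD8 cells and from between 558 and 773 to between 948 and 1385 in CD4 cells, and the part of either sum in these changes was not tested.

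**Figure D2:**
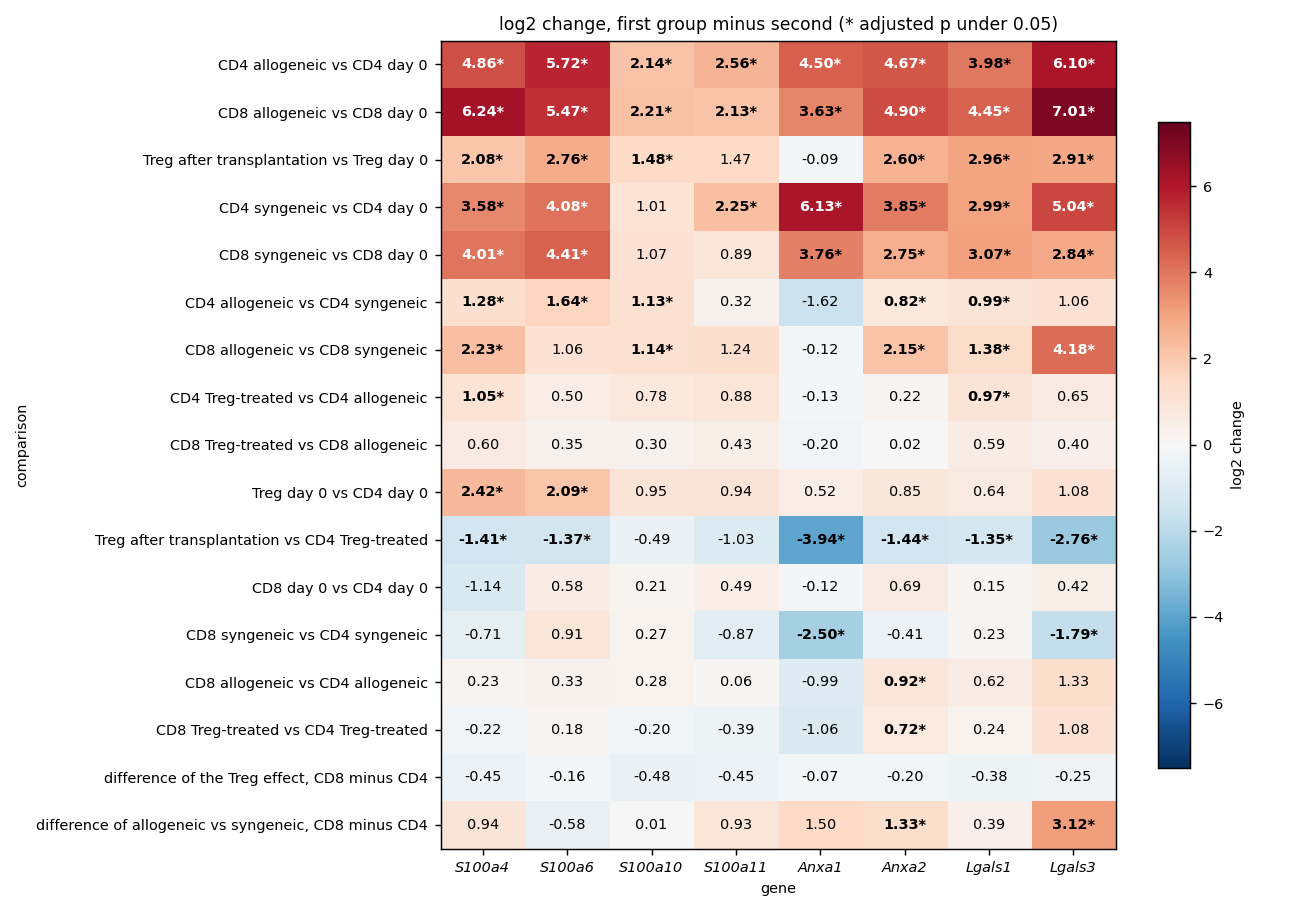
log2 change of each gene (columns) in each of the 17 comparisons (rows), first group minus second, coloured from blue (lower) to red (higher); bold values with a star passed limma's adjusted p of 0.05. The upper rows, each after transplantation against day 0, are red except Anxa1 in Treg, and the changes of Treg-treated against allogeneic lie between -0.20 and 1.05.

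Syngeneic recipients served as the transplanted control. In CD4 cells 7 of the 8 genes were higher in syngeneic recipients than at day 0 (9.90% of all genes were), with a median log2 change of 3.71. S100a10 was not called (1.01 ± 0.41, adjusted p = 0.1). Without the JL019-2 library the same 7 were called: Anxa1 then had a log2 change of 4.56 in place of 6.13, Lgals3 3.95 in place of 5.04 and S100a11 1.32 in place of 2.25. S100a11 lost its call without the day 0 library JL027 (adjusted p = 0.0773), with the replicate label as a fixed block (0.0529), within JL019 (2.56, adjusted p = 0.174) and within JL027 (1.51, adjusted p = 0.188). With only the groups compared, 4 of the 7 calls were lost at the same log2 changes: S100a6 (adjusted p = 0.1085), S100a11 (0.3175), Anxa1 (0.1785) and Lgals3 (0.133). In CD8 cells 6 of 8 rose (13% of all genes did), with a median of 2.95: S100a4 by 4.01 ± 0.41, S100a6 by 4.41 ± 0.53, Anxa1 by 3.76 ± 0.76, Anxa2 by 2.75 ± 0.29, Lgals1 by 3.07 ± 0.35 and Lgals3 by 2.84 ± 0.60. S100a10 (1.07 ± 0.41, adjusted p = 0.0538) and S100a11 (0.89 ± 0.54, adjusted p = 0.229) were not called, and S100a10 was called without the syngeneic library JL019-2 (1.32, adjusted p = 0.0256). Within JL019 Anxa1 (3.46, adjusted p = 0.12) and Lgals3 (2.58, adjusted p = 0.13) were not called. With the log2 of the library's mean value as a covariate the 6 calls were kept at smaller sizes. Lgals3 was then at 1.00, Anxa1 at 1.89, S100a6 at 2.76, Anxa2 at 1.92, Lgals1 at 2.16 and S100a4 at 2.88. In CD4 cells all 7 calls were also kept at smaller sizes with that covariate, with S100a11 at 0.99 in place of 2.25. The myeloid sum moved with these comparisons, from between 1303 and 2059 to between 112413 and 5096590 in CD4 cells and from between 6363 and 6719 to between 55174 and 90542 in CD8 cells. The erythroid sum went from between 749 and 1447 to between 4857 and 468674 in CD4 cells and from between 31730 and 35897 down to between 3332 and 11152 in CD8 cells, and the B cell marker sum from between 2022 and 2713 to between 3282 and 4075 in CD8 cells. The part of these sums in the rises was not tested.

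Allogeneic CD8 cells stood well above syngeneic CD8 cells in 5 of the 8 genes (10.4% of all genes were higher), and Lgals3 differed most. Lgals3 was 1133, 961.0 and 2610 in the CD8 syngeneic libraries, against 24080 to 27737 in the allogeneic ones, a log2 change of 4.18 ± 0.51 (adjusted p = 4.79e-07). Anxa2 was 13778, 10420 and 17215 in syngeneic libraries, against 54112 to 73010, a change of 2.15 ± 0.25 (adjusted p = 1.79e-07). S100a4 was 2.23 ± 0.34 higher, Lgals1 1.38 ± 0.29 and S100a10 1.14 ± 0.34. S100a6 (1.06 ± 0.44, adjusted p = 0.0915) and S100a11 (1.24 ± 0.46, adjusted p = 0.0519) were not called. Their library ranges did not overlap, but how many of all genes do so was not counted. Anxa1 was 1729, 1891 and 2520 in syngeneic libraries and 1570 to 2543 in allogeneic ones, with overlap (-0.12 ± 0.64, adjusted p = 0.92). The S100a10 call was lost without the syngeneic library JL019-1 (adjusted p = 0.0635) or JL019-2 (0.0979), and S100a11 was called without JL027 (1.60, adjusted p = 0.0325). Within each label prefix Lgals3 and Anxa2 were called. S100a4 (1.62, adjusted p = 0.0661), Lgals1 (0.90, adjusted p = 0.185) and S100a10 (0.53, adjusted p = 0.471) were not called within JL027, and S100a10 was not within JL019 (1.42, adjusted p = 0.0648). The myeloid sum was 55174 to 90542 in syngeneic and 7927 to 13849 in allogeneic CD8 libraries, and the B cell marker sum 3282 to 4075 against 1152 to 1279, each without overlap; their part in these differences was not tested.

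In CD4 cells the same comparison gave 5 of 8 genes higher in allogeneic cells (6.69% of all genes were): S100a4 by 1.28 ± 0.34, S100a6 by 1.64 ± 0.44, S100a10 by 1.13 ± 0.34, Anxa2 by 0.82 ± 0.25 and Lgals1 by 0.99 ± 0.29. With only the groups compared, S100a6 and Anxa2 did not pass (adjusted p = 0.123 and 0.188), and Anxa2 did not with the replicate label as a fixed block (0.80, adjusted p = 0.0785). Within JL019 none of the 5 was called (adjusted p from 0.1085 to 0.5623), and within JL027 S100a6 was (2.27, adjusted p = 0.0221), but not S100a4, S100a10, Anxa2 or Lgals1 (0.0614 to 0.3525). The myeloid sum was at least 112413 in the CD4 syngeneic libraries and at most 15908 in the allogeneic ones. The B cell marker sum was 285, 1682 and 276 in the syngeneic libraries JL019-1, JL019-2 and JL027, against 948 to 1385 in allogeneic ones. The part of either sum was not tested. Which genes passed depended on the library with myeloid RNA. Lgals3 was 2322, 22227 and 2267 in the CD4 syngeneic libraries, in the order JL019-1, JL019-2 and JL027, against 8384 to 11547 in allogeneic ones. With all libraries it was not called (1.06 ± 0.51, adjusted p = 0.182), and without JL019-2 it was 2.15 ± 0.36 higher (adjusted p = 1.09e-04). S100a11, at 5813, 42664 and 6579 in the syngeneic libraries, was likewise called without JL019-2 (1.25 ± 0.35, adjusted p = 0.0179), S100a6 then differed by 2.43 and Anxa2 by 1.25, and Lgals1 just missed (1.00, adjusted p = 0.0517). Anxa1 was 4678, 100651 and 3145, and its change went from -1.62 ± 0.64 (adjusted p = 0.091) to -0.05 ± 0.32 (adjusted p = 0.965). Leaving out other libraries also moved calls: without the allogeneic library JL027-1 only S100a4 and S100a6 of the 8 passed, without JL019-1 S100a10 did not pass (adjusted p = 0.0582), and without JL027-2 Anxa2 did not (0.0599). Without the syngeneic library JL019-1 only Anxa1 passed, as lower (-2.27, adjusted p = 0.0229), and without JL027 S100a6 and Anxa2 did not pass while Anxa1 did, as lower (-2.55, adjusted p = 0.00518).

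The gap between allogeneic and syngeneic cells was wider in CD8 than in CD4 cells for 2 of the 8 genes by a test of the difference itself (2.69% of all genes were higher in it): Lgals3, by a log2 of 3.12 ± 0.72 (adjusted p = 0.00881), and Anxa2, by 1.33 ± 0.35 (adjusted p = 0.0228). Without the CD4 syngeneic library JL019-2, Lgals3 still differed (2.02 ± 0.48, adjusted p = 0.0111) and Anxa2 did not pass (0.91 ± 0.29, adjusted p = 0.0816). Anxa2 also did not pass without the CD4 allogeneic library JL019-2 (1.22, adjusted p = 0.0564) or the CD8 syngeneic library JL019-2 (1.15, adjusted p = 0.0746). Within a prefix neither gene passed, with Lgals3 at 4.18 in JL019 and 1.05 in JL027. Neither passed with only the groups compared (Lgals3 0.0621 and Anxa2 0.102, adjusted p).

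Anxa1 in syngeneic cells ran beside the myeloid markers. The summed myeloid value of CD8 cells was 55174 to 90542 in the syngeneic libraries, above the 7927 to 13849 of the allogeneic ones, while the Anxa1 values of both groups overlapped. Per 1000 of the summed myeloid value, Anxa1 was 19.8 in the CD4 syngeneic library JL019-2. It was between 24.98 and 31.3 in the 3 CD8 syngeneic libraries and up to 37.0 in the other CD4 syngeneic libraries. In the day 0 libraries it was between 20.1 and 25.6 in CD8 cells, between 89.2 and 109.7 in CD4 cells and between 74.2 and 78.5 in Treg. Treg after transplantation ranged from 32.6 to 90.55, CD4 Treg-treated libraries from 40.3 to 82.25 and CD8 Treg-treated libraries from 73.0 to 84.2. In allogeneic libraries it was between 240 and 373 in CD4 cells and between 117 and 231 in CD8 cells. The part of myeloid RNA in the syngeneic Anxa1 values was not tested.

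**Figure D3:**
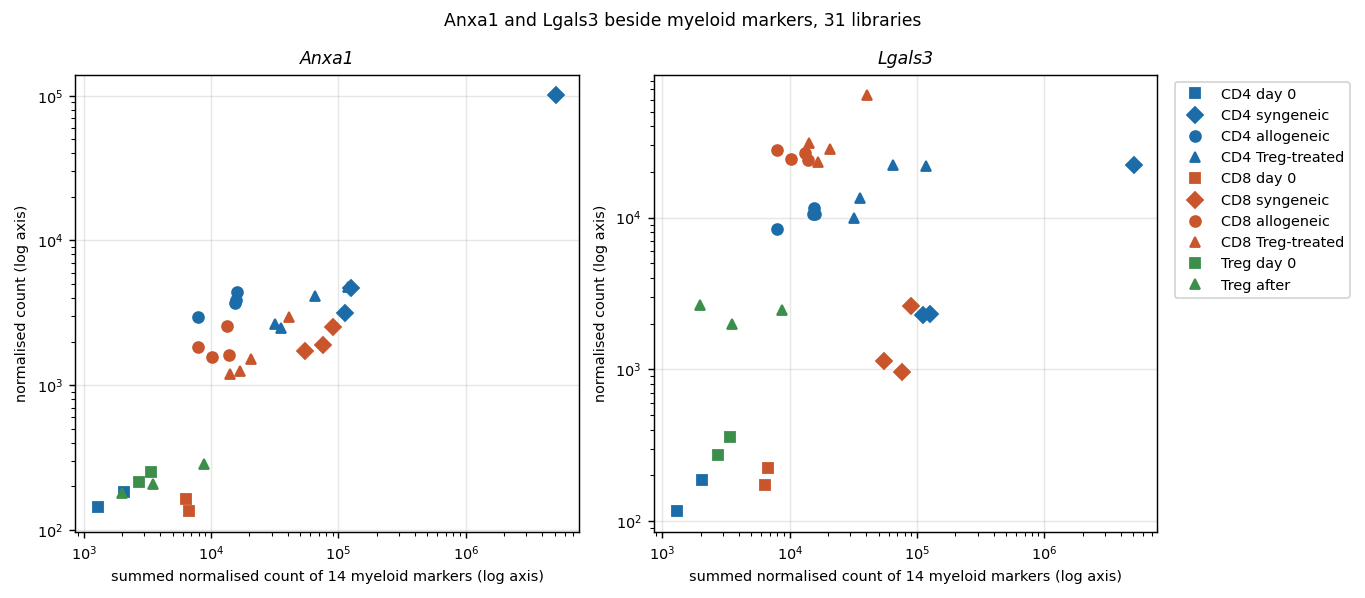
Normalised count of Anxa1 (left) and Lgals3 (right) against the summed normalised count of 14 myeloid marker genes in the same library (both axes log), for the 31 libraries by cell type (colour) and group (shape). The syngeneic libraries (diamonds) have more myeloid signal than the allogeneic ones (circles), with Anxa1 at a similar height and Lgals3 well below, apart from the CD4 syngeneic library at the far right with 5096590.

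CD8 and CD4 cells of the same condition were compared at each stage. At day 0, 0 of the 8 genes passed (3.32% of all genes did in either direction), with changes from -1.14 ± 0.45 (S100a4) to 0.69 ± 0.32 (Anxa2); S100a4 and Anxa2 had an unadjusted p under 0.05 (0.0171 and 0.0416). The myeloid, B cell and erythroid sums were each higher in the day 0 CD8 than in the day 0 CD4 libraries, without overlap. In allogeneic recipients, Anxa2 was higher in CD8 cells (0.92 ± 0.23, adjusted p = 0.012, 3.05% of all genes higher), with all 4 CD8 libraries above all 4 CD4 libraries. With the recipient as a random block the adjusted p was 0.00619. The call was lost without the CD4 library JL019-2 (0.80, adjusted p = 0.0631) or the CD8 library JL027-1 (0.83, adjusted p = 0.0509), and within prefixes the change was 1.03 in JL019 and 0.81 in JL027, with neither called (adjusted p = 0.435 and 0.269). Lgals3 (1.33 ± 0.47, adjusted p = 0.0989), Lgals1 (0.62 ± 0.27, adjusted p = 0.22) and Anxa1 (-0.99 ± 0.59, adjusted p = 0.413) did not pass. Their library ranges were separate, with Anxa1 higher in CD4 cells, but separate ranges were not counted over all genes.

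In Treg-treated recipients Anxa2 was again higher in CD8 cells (0.72 ± 0.23, adjusted p = 0.0419, 4.90% of all genes higher), at 52147, 78560, 50852 and 66792, against 43676, 40868, 30837 and 34088 in CD4 cells. This call was lost without any of 5 libraries: CD4 JL019-2 (adjusted p = 0.0623), JL027-1 (0.0769) and JL027-2 (0.116), and CD8 JL019-2 (0.0776) and JL027-2 (0.114). The log2 change stayed between 0.60 and 0.77 in those fits. It was also lost with the replicate label as a fixed block (adjusted p = 0.066), median centred (0.66, adjusted p = 0.14), with the gene length trend removed (0.69, adjusted p = 0.0722) and with only the groups compared (0.135), and within prefixes the change was 0.60 in JL019 and 0.85 in JL027, with neither called. In syngeneic recipients Anxa1 (-2.50 ± 0.68, adjusted p = 0.0149) and Lgals3 (-1.79 ± 0.54, adjusted p = 0.0293) were lower in CD8 than CD4 cells (6.98% of all genes were), and both calls ended without the CD4 library JL019-2 (-0.93, adjusted p = 0.0822, and -0.695, adjusted p = 0.247), where S100a6 became higher in CD8 cells (1.71 ± 0.40, adjusted p = 0.00579). Both also ended without the CD8 library JL019-1 (adjusted p = 0.0586 and 0.111), and Lgals3 without JL019-2 (0.0937), and neither passed with only the groups compared (0.351 and 0.37) or within JL019 (0.0943 and 0.0921); within JL027 Anxa1 was -0.32 and Lgals3 0.20, neither called. Lgals3 also missed when median centred (-1.58, adjusted p = 0.0601). The B cell marker sum was 1341 to 2135 in CD8 against 612 to 1134 in CD4 cells of Treg-treated recipients and 3282 to 4075 against 276 to 1682 in syngeneic ones. The myeloid sum overlapped in the former (14174 to 40790 in CD8 cells, 31987 to 118654 in CD4 cells) and was lower in all CD8 than in all CD4 syngeneic libraries. The part of these sums in the differences was not tested.

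The Treg effect was asked by comparing Treg-treated with untreated allogeneic recipients. In CD4 cells 2 of the 8 genes were higher after Treg treatment (10.7% of all genes were): S100a4 by 1.05 ± 0.32 (adjusted p = 0.023) and Lgals1 by 0.97 ± 0.27 (adjusted p = 0.0176). The median log2 change of the 8 genes was 0.71, against 0.00 over all genes and 0.39 over the 3964 genes at or under the lower quartile of span. S100a4 was 35708, 34437, 12521 and 26673 in the Treg-treated libraries JL019-1, JL019-2, JL027-1 and JL027-2, against 10232 to 14752 in allogeneic ones. Lgals1 was 132293, 135785, 59062 and 100134, against 45336 to 59870. For both genes 3 libraries were high and JL027-1 lay within the allogeneic range. S100a10, S100a11, Lgals3 and S100a6 had positive changes that did not pass (0.78, 0.88, 0.65 and 0.50), and Anxa2 and Anxa1 were at 0.22 and -0.13.

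The same 3 libraries differed from the CD4 allogeneic ones over short genes as a whole. The slope of a library's log2 values, relative to each gene's mean over libraries, on the log2 of gene span was -0.0986, -0.121 and -0.0688 per doubling of span in JL019-1, JL019-2 and JL027-2, and 0.0161 in JL027-1, against 0.0194 to 0.0451 in the CD4 allogeneic libraries. The median difference of the 8 genes from the allogeneic mean was 1.18, 1.20 and 0.65 in those 3 and -0.03 in JL027-1. With this length trend removed the calls of S100a4 and Lgals1 were kept, at 0.77 ± 0.25 and 0.75 ± 0.22 (adjusted p = 0.0328 and 0.0222). With the log2 of the library's mean value as a covariate 0 of the 8 passed, and the count of all genes called fell from 3710 to 570. S100a4 was then 0.47 (adjusted p = 0.185) and Lgals1 0.50 (adjusted p = 0.12). Both genes also missed without the Treg-treated library JL019-1 (adjusted p = 0.0874 and 0.0692), JL019-2 (0.0887 and 0.0734) or JL027-2 (0.0643 and 0.053), or the allogeneic library JL019-2 (0.0655 and 0.0546), and S100a4 without the allogeneic JL027-2 (0.0597). Without JL027-1, S100a10 (1.11, adjusted p = 0.00591) and S100a11 (1.16, adjusted p = 0.0445) passed as well. Within prefixes the change of S100a4 was 1.53 in JL019 and 0.57 in JL027, and that of Lgals1 1.44 and 0.49, with none called. The myeloid sum was also higher in Treg-treated CD4 cells, 31987 to 118654. The erythroid sum was 6095 and 5520 in the JL019 and 50292 and 62621 in the JL027 Treg-treated libraries, against 465 to 10822 in allogeneic ones, and the part of either sum in these values was not tested.

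In CD8 cells 0 of the 8 genes passed between Treg-treated and allogeneic recipients (0.0657% of all genes did in either direction). Lgals1 alone had an unadjusted p under 0.05 (0.59 ± 0.27, adjusted p = 0.431 by limma). The median of the 8 was 0.37, against -0.01 over all genes and 0.20 over the same 3964 short genes. It rested on the library JL019-2, whose 8 genes had a median difference of 1.49 from the allogeneic mean and whose length slope was -0.124; the other 3 Treg-treated libraries were at 0.05, -0.20 and 0.21. The myeloid sum was 40790 in JL019-2 and 14174 to 20653 in the other 3, against 7927 to 13849 in allogeneic CD8 libraries, and the B cell marker sum 2135 and 1341 to 1493, against 1152 to 1279; their part was not tested. Without JL019-2 the changes of the 8 genes lay between -0.50 (Anxa1) and 0.26 (Lgals1). The difference of the Treg effect between CD8 and CD4 cells was called by limma in 0 of the 8 genes (0.00597% of all genes called, differences from -0.48 to -0.07, no unadjusted p under 0.05 and the smallest 0.289). With library weights it was called in 4: S100a4 (-1.06, adjusted p = 0.0109), S100a10 (-1.03, 0.00987), S100a11 (-0.90, 0.0273) and Lgals1 (-0.80, 0.0189). The 0.00597% belongs to the fit without weights. Weights raised the number of all genes called elsewhere too, from 651 to 2622 between day 0 Treg and CD4 cells. The 4 calls are therefore not read as a result about the 8 genes.

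**Figure D4:**
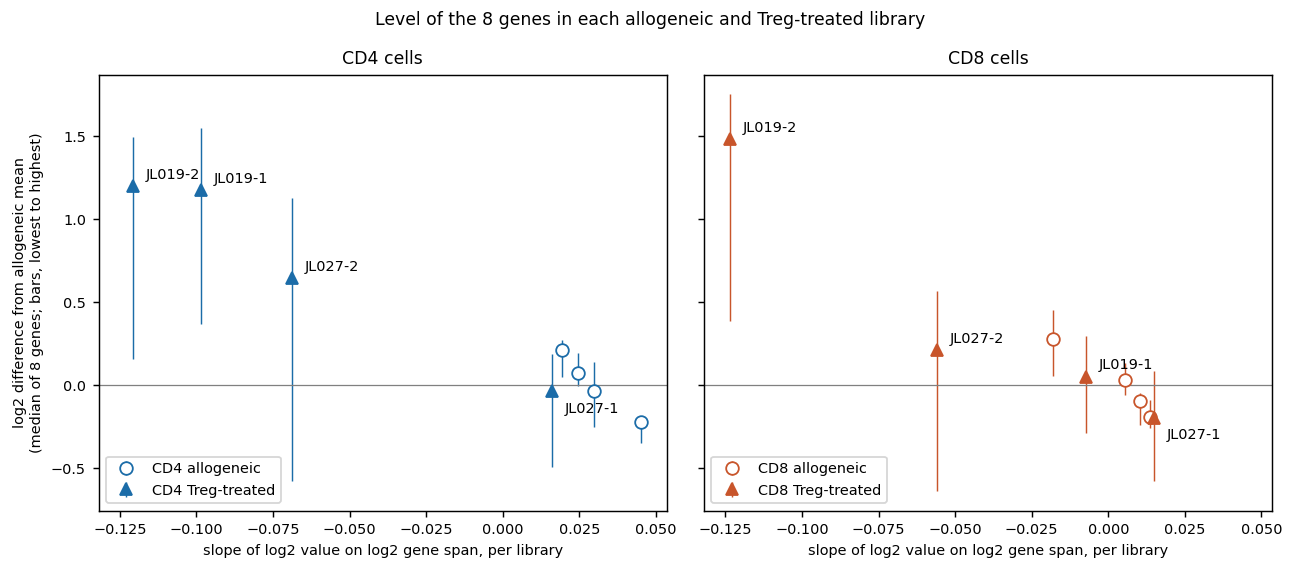
Median log2 difference of the 8 genes from the allogeneic mean of the same cell type (points; bars run from the lowest to the highest gene) against the library's slope of log2 value on log2 gene span, for allogeneic (open circles) and Treg-treated libraries (triangles, with replicate label). The Treg-treated libraries with the highest levels, 1.18 and 1.20 in CD4 and 1.49 in CD8 cells, are those with the most negative slopes.

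Treg carried more S100a4 and S100a6 than CD4 cells before transplantation. S100a4 was 1970 and 2569 in the day 0 Treg libraries, against 455.5 and 385.1 in CD4 cells, a log2 change of 2.42 ± 0.45 (adjusted p = 0.00118). S100a6 was 2056 and 2151, against 539.1 and 454.3, a change of 2.09 ± 0.58 (adjusted p = 0.0383), and its call was lost when any 1 of the 4 libraries was left out (adjusted p from 0.161 to 0.234). The call of S100a4 was kept in each of those fits. Within JL019 neither was called (S100a4 2.11, adjusted p = 0.2365; S100a6 1.93, adjusted p = 0.525), and within JL027 S100a4 alone was (2.73, adjusted p = 0.0459). S100a6 also missed when libraries were median centred (2.01, adjusted p = 0.0804). These were 2 of 8 genes (2.54% of all genes were higher). The others had changes from 0.52 to 1.08 that did not pass in the main fit, which called 651 of all genes. With only the groups compared 2081 of all genes were called. There S100a10, S100a11, Anxa2 and Lgals1 passed too (adjusted p = 0.00420, 0.00557, 0.00960 and 0.0314). With library weights, where 2622 of all genes were called, all but Anxa1 passed. The myeloid sum was 2738 and 3403 in day 0 Treg against 1303 and 2059 in day 0 CD4 cells, the B cell marker sum 1095 and 1306 against 558 and 773, and the erythroid sum 122 and 460 against 749 and 1447; their part in these differences was not tested.

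After transplantation the Treg rose in 6 of the 8 genes (8.43% of all genes did): Lgals1 by 2.96 ± 0.35, Lgals3 by 2.91 ± 0.60, S100a6 by 2.76 ± 0.53, Anxa2 by 2.60 ± 0.29, S100a4 by 2.08 ± 0.41 and S100a10 by 1.48 ± 0.41. S100a11 did not pass (1.47 ± 0.54, adjusted p = 0.0765), and the call of S100a10 was lost without the day 0 library JL019 (0.0741) or JL027 (0.114). Anxa1 did not pass: it was 215.0 and 252.6 at day 0 and 284.4, 179.5 and 205.9 afterwards (-0.09 ± 0.76, adjusted p = 0.962). The myeloid sum was 2738 and 3403 at day 0 and between 1983 and 8730 afterwards. The erythroid sum went from between 122 and 460 to between 1708 and 50529. The B cell marker sum went from between 1095 and 1306 down to between 609 and 912. The part of these sums was not tested. With the log2 of the library's mean value as a covariate the 6 calls were kept, with S100a4 at 1.32, S100a6 at 1.65, S100a10 at 0.75 and Lgals3 at 1.67. The genes not called before moved as well, S100a11 to 0.34 and Anxa1 to -1.35. Within JL019 S100a6, S100a10 and Lgals3 were not called (adjusted p = 0.12, 0.154 and 0.107), and within JL027 S100a4 and S100a10 were not (0.112 and 0.23).

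Against CD4 cells of Treg-treated recipients, which share the recipients' treatment, Treg were lower in 6 of the 8 genes (16.1% of all genes were). Anxa1 differed most, with 179.5 to 284.4 in Treg and 4783, 4127, 2631 and 2474 in CD4 cells (-3.94 ± 0.64, adjusted p = 6.97e-05). Lgals3 was 2465, 2648 and 2006 in Treg and 21929, 22087, 10019 and 13526 in CD4 cells (-2.76 ± 0.51, adjusted p = 2.77e-04). Anxa2 (-1.44 ± 0.25), S100a4 (-1.41 ± 0.34), S100a6 (-1.37 ± 0.44) and Lgals1 (-1.35 ± 0.29) were lower too, and S100a11 (-1.03 ± 0.46, adjusted p = 0.087) and S100a10 (-0.49 ± 0.34, adjusted p = 0.277) did not pass. S100a10 in Treg, 37089, 41423 and 34093, lay within the range of the CD4 libraries. With the length trend removed all 6 kept their calls, with S100a4 at -1.08, Lgals1 at -1.09, Anxa1 at -3.94 and Lgals3 at -2.71. The call of S100a6 was lost without the CD4 library JL019-1 (adjusted p = 0.0652) or JL019-2 (0.0721). It was also lost without the Treg library JL019-1 (0.0732) or JL027 (0.056). With the log2 of the library's mean value as a covariate it was lost as well (-0.43, adjusted p = 0.176). Within JL027 S100a4, S100a6, Anxa2 and Lgals1 did not pass (adjusted p = 0.414, 0.3775, 0.0838 and 0.375), and within JL019 S100a6 did not (0.0923). S100a10 and S100a11 passed without the CD4 library JL027-1 (0.0422 and 0.0306). The CD4 cells had the larger myeloid sum, 31987 to 118654 against 1983 to 8730, and its part in the Anxa1 and Lgals3 differences was not tested.

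Ordered by group mean, with the CD4 syngeneic library JL019-2 left out, S100a4 ran from 193.3 in day 0 CD8 cells over 420.3 in day 0 CD4 cells and 2269 in day 0 Treg to 27335 in CD4 Treg-treated cells. For S100a6, S100a10, S100a11, Anxa2, Lgals1 and Lgals3 the lowest mean was that of day 0 CD4 cells, followed by day 0 CD8 cells and day 0 Treg. The steps at the top were mostly within the spread: of the 9 neighbouring pairs of groups in each order, the library ranges overlapped in 5 for S100a6, S100a11, Anxa2, Lgals1 and Lgals3, 6 for S100a4, 7 for S100a10 and 8 for Anxa1. Anxa1 had a different order. Its means were 149.2, 163.3, 223.3 and 233.8 in day 0 CD8, day 0 CD4, later Treg and day 0 Treg libraries, and the only gap without overlap led from there to the other groups, between 1734 (CD8 Treg-treated) and 3911 (CD4 syngeneic without JL019-2).

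The 8 genes varied together over libraries. Over 30 libraries (without CD4 syngeneic JL019-2), on log2(value + 1), Pearson's r was between 0.854 and 0.984 (median 0.935) for the 21 pairs without Anxa1 and between 0.549 and 0.77 (median 0.739) for the 7 pairs with it. These are descriptions over libraries that share groups and normalisation, since the genes were chosen as a set. The genes of the table most like all 8 were Cenpa, the histone of the centromere (mean r 0.918), AA467197 (0.917), the glycolytic enzyme gene Gapdh (0.917), Dera (0.916) and the calmodulin gene Calm3 (0.916). The most alike gene of each was Pabpc1l for S100a4 (0.961), Gapdh for S100a6 (0.979) and for Lgals1 (0.987), Pglyrp1 for S100a10 (0.972), Sec11c for S100a11 (0.98), Ccnb2, a mitotic cyclin, for Anxa2 (0.986) and Cenpa for Lgals3 (0.987). For Anxa1 it was Chil3 (0.914), a secreted protein of neutrophils and macrophages.

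The rest of the 3 families was followed as a list. Of 33 other S100, annexin and galectin genes listed, 21 were in the table. From day 0 to allogeneic recipients 12 of the 21 rose and none fell in CD4 cells (median log2 change 1.20, with 14.4% of all genes rising), and 12 rose and none fell in CD8 cells (1.08, with 16.3%). Anxa4 rose in both (2.24 ± 0.22 and 2.39 ± 0.22), as did Lgalsl, a galectin-related gene (2.40 ± 0.33 and 2.15 ± 0.33). S100a8, a granulocyte gene and one of the myeloid markers, rose by 7.13 ± 0.98 in CD4 cells, from 31.2 to 4107, and S100a3 by 3.16 ± 0.46 in CD8 cells. In syngeneic against day 0 cells 6 of 21 rose in CD4 cells (9.90% of all genes did) and 9 in CD8 cells (13%). Without the library JL019-2 the CD4 count was 7, with 6.48% of all genes rising. Anxa9 fell in CD8 cells (-1.71 ± 0.53), where 11.3% of all genes fell. S100a8 changed most in CD4 cells, from 15.04 and 47.4 at day 0 to 33541, 1511210 and 35269, where the middle value is the library JL019-2. In CD8 cells S100a8 and S100a9 rose by 6.03 ± 1.03 and 6.11 ± 1.03. Between allogeneic and syngeneic cells Anxa4 was higher in CD4 (0.79 ± 0.19, and 0.98 ± 0.20 without JL019-2) and CD8 cells (2.05 ± 0.19), whereas Lgals9, which encodes a ligand of Tim-3, and Lgals3bp, which encodes a glycoprotein that binds Lgals3, were lower in allogeneic CD8 cells (-1.08 ± 0.19 and -1.02 ± 0.22), as were 10.7% of all genes.

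Lgals7 had the lowest adjusted p of the 21 family genes in Treg after transplantation. It was 29.6 in day 0 Treg and 3056 in Treg after transplantation on average, a log2 change of 6.62 ± 0.90 (adjusted p = 5.78e-06), and higher there than in CD4 cells of Treg-treated recipients by 4.49 ± 0.75 (adjusted p = 1.08e-04). It was lower in CD8 than in CD4 cells of allogeneic (-2.99 ± 0.70) and Treg-treated recipients (-3.17 ± 0.70), where 3.09% and 4.71% of all genes were lower. Of the 21 family genes, 9 rose and none fell in Treg after transplantation (8.43% of all genes rose), and 5 were higher and 6 lower in Treg than in CD4 cells of Treg-treated recipients (13.9% and 16.1% of all genes), with Lgals8 at 0.91 ± 0.15. Between Treg-treated and allogeneic CD4 cells 3 were higher (S100a8 by 2.43 ± 0.80, S100a9 by 2.38 ± 0.80, S100a13 by 0.86 ± 0.29) and 2 of the 21 lower (Anxa11 at -1.86 ± 0.48, Anxa9 at -1.32 ± 0.41), counts near the 10.7% and 11.5% of all genes, and in CD8 cells none passed in either direction.

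Genes for proteins that bind or receive the 8 were followed as a list of 16, of which 14 were in the table. In allogeneic against day 0 cells 7 of 14 rose and none fell in CD4 cells (14.4% of all genes rose and 9.61% fell), and 6 rose and 2 fell in CD8 cells (16.3% and 14.2%), so the 2 falls were near the background. Havcr2 (Tim-3), an inhibitory receptor that binds galectin 9, rose by 8.55 ± 0.35 in CD4 and 9.21 ± 0.35 in CD8 cells, and Lag3, an inhibitory receptor reported to bind Lgals3, by 3.26 ± 0.39 and 4.85 ± 0.39. Itgb1, an integrin chain that galectins bind, rose by 2.79 ± 0.28 and 1.41 ± 0.28, and Mgat5, the enzyme that builds galectin ligands, was 1 of those 2 (-0.96 ± 0.25). Havcr2 and Lag3 were also higher in allogeneic than in syngeneic CD8 cells (7.23 ± 0.31 and 5.45 ± 0.34), and Ahnak, the scaffold of the S100a10 and Anxa2 complex, rose there by 1.73 ± 0.37. Fpr1 and Fpr2, formyl peptide receptors of myeloid cells that Anxa1 binds, were called higher in CD4 syngeneic than in day 0 cells with and without JL019-2. Fpr1 was listed at 0 in both day 0 libraries and had a mean of 1462 in syngeneic ones, or 162.2 without JL019-2 (adjusted p = 6.68e-06), and Fpr2 went from 1.79 to 1756, or to 104.65 without it (adjusted p = 1.16e-04). Between Treg-treated and allogeneic CD4 cells 2 of 14 were lower and none higher, with 11.5% of all genes lower, so the count was near the background: Ahnak (-1.24 ± 0.35, adjusted p = 0.0173) and Cd44 (-0.67 ± 0.20, adjusted p = 0.0197).

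Genes of effector and of resting T cells were listed beside the 8. Of 12 effector genes, 7 rose and 1 fell in allogeneic CD4 cells (14.4% and 9.61% of all genes did) and 7 and 1 in CD8 cells (16.3% and 14.2%), so the share that fell was no higher than the background. Gzmb, granzyme B, rose by 7.68 ± 0.30 and 9.01 ± 0.30, and Vim, vimentin, by 2.20 ± 0.19 and 3.11 ± 0.19, while Lmna, lamin A, fell by 1.81 and 3.13 on the log2 scale. These 3 effector genes were named after their values were seen. In Treg 6 of 12 rose and none fell (8.43% of all genes rose), with Gzmb up by 8.69 ± 0.32. Of 10 resting genes, 6 fell and none rose in CD4 cells (9.61% of all genes fell), 6 fell and none rose in CD8 cells (14.2%), and 7 fell and 1 rose in Treg, where 4.89% of all genes fell. These lists, like the 8 genes, were chosen with earlier results of these data known.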

How the data were processed

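The RNA table of 31 libraries, made per the labels' protocols from full-length cDNA, holds signal values: counts that the authors normalised between libraries, with columns in the layout of DESeq2 results per the file headers. The submitters' processing notes name FastQC 0.11.7, kallisto, DESeq2 and the builds GRCm38 and mm10, with no role given. The deposited base mean equals the mean of the 31 columns within a relative difference of 5.86e-07. The values are not whole, so no count test was run and depth is unknown. The T-cell receptor tables were not used here.

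Tests used limma 3.58.1 (trend, robust; R 4.3.3) on log2(value + 1) over genes with a mean of at least 1, with 10 group means fitted to all 31 libraries, 17 contrasts, and Benjamini-Hochberg adjustment over 16741 genes at 0.05. The fit was checked on simulated data. Other tables and the plots were made with Python 3.11.15 and pandas 2.3.3. The 8 genes and the lists were chosen with earlier results of these data known. Of other family and partner genes, up to 3 called genes in each direction with the lowest adjusted p could be named per comparison; the most alike genes are the 5 with the highest mean r to the 8 genes, and 1 for each.

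Replicate labels may mark a recipient. Over 21 pairs of cell types with the same label, deviations from group means had r from -0.319 to 0.442 (median 0.135). Both extremes are day 0 pairs, which have no recipient. With 2 libraries per group, the JL019 and JL027 pairs at day 0 have the same r by construction. The pairs after transplantation ran from -0.114 to 0.428. All 4 CD4 and CD8 pairs of allogeneic recipients were above 0.1 (0.135, 0.183, 0.416 and 0.14), so that comparison is also given with the recipient as a block. Alternatives covered the pseudocount, filters, scaling, blocks, gene length, library weights and left-out libraries; the fits within a prefix, and the list counts without the CD4 syngeneic library JL019-2, were chosen after seeing the data.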

Additional observations from a re-analysis of the deposited data

Results flagged for a closer look

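In CD8 cells of Treg-treated recipients, the library JL019-2 lay far from the other 3 for the 4 S100 genes, by the gap to its nearest neighbour relative to the whole range: S100a4 at 48362.9, S100a6 at 100497, S100a10 at 104039 and S100a11 at 42870.9. These were 4 of 32 groups of 4 libraries examined over the 8 genes, and chance marks about 1 in 20. The 4 values come from 1 library, so they are not independent. That library also had the highest mean value per gene of all 31, 2385, and a length slope of -0.124.

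The change from syngeneic to allogeneic recipients differed between CD8 and CD4 cells for Anxa2, by a log2 of 1.3328, and for Lgals3, by 3.1159, by limma's test of the difference. Without the CD4 syngeneic library rich in myeloid RNA these were 0.91 and 2.02, and Lgals3 alone kept its call.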

How the results depend on the processing

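Of 2896 values under alternatives, 2572 kept their direction and side of the threshold, 123 lost a call, 98 gained one, 102 changed sign without being called in either fit and 1 called value reversed: Lgals3 between CD8 and CD4 syngeneic cells, at 0.2034 within prefix JL027. The cause of these changes was not tested. Fits within a prefix or of the compared groups alone have fewer libraries, and the latter take the spread from those groups only. That spread could be smaller: the SE of S100a4 between day 0 Treg and CD4 cells was 0.1917 in place of 0.4486.

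The counts of the 8 genes called when 1 library was left out ran from 8 to 8 (CD4 allogeneic against day 0), 7 to 8 (CD8 allogeneic against day 0), 5 to 6 (Treg after transplantation against day 0), 6 to 7 (CD4 and CD8 syngeneic against day 0), 1 to 6 (CD4 allogeneic against syngeneic), 4 to 6 (CD8 allogeneic against syngeneic), 0 to 4 (CD4 Treg-treated against allogeneic), 0 to 0 (CD8 Treg-treated against allogeneic, CD8 against CD4 at day 0, difference of the Treg effect), 1 to 1 (Treg against CD4 at day 0), 5 to 8 (Treg against CD4 of Treg-treated recipients), 0 to 2 (CD8 against CD4 syngeneic), 0 to 1 (CD8 against CD4, allogeneic and Treg-treated) and 1 to 2 (difference of the allogeneic against syngeneic change). A lone library left in a group is assumed to vary like the other groups.

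Other counts that moved were as follows. The counts of all genes called, which also differ between fits, are given for some of these fits only. Treg after transplantation against day 0 gave 3 within JL019. CD4 syngeneic against day 0 gave 3 with only the groups compared. In that fit 235 of all genes were called, against 2181 in the main fit. CD4 allogeneic against syngeneic gave 3 with a log2 change of at least 1, 3 with only the groups compared, 0 within JL019 and 2 within JL027, and CD8 allogeneic against syngeneic gave 2 within JL027. CD4 Treg-treated against allogeneic gave 1 with a log2 change of at least 1, 0 with the library mean as covariate, 6 with library weights and 0 within either prefix. Treg against CD4 at day 0 gave 6 with only the groups compared, 1 median centred, 5 quantile normalised, 6 with the library mean, 7 with weights, 0 within JL019 and 1 within JL027. Treg against CD4 of Treg-treated recipients gave 2 within JL027. CD8 against CD4 at day 0 gave 2 with only the groups compared, quantile normalised, with the library mean or with weights. Of all genes, 556 were called there in the main fit, and 1802, 712, 1017 and 1227 in those fits. Between day 0 Treg and CD4 cells 651 were called in the main fit. The numbers were 2081 with only the groups compared, 587 median centred, 831 quantile normalised, 1272 with the library mean and 2622 with weights. In these day 0 fits the counts of the genes described here thus rose and fell with those of all genes. CD8 against CD4 syngeneic gave 0 with only the groups compared, 1 median centred, 4 quantile normalised, 5 with the library mean, 4 with weights and 0 within either prefix. CD8 against CD4 allogeneic gave 0 with a log2 change of at least 1, 4 with only the groups compared, 2 quantile normalised, 3 with the library mean, 4 with weights and 0 within either prefix. CD8 against CD4 Treg-treated gave 0 with a log2 change of at least 1, with only the groups compared, median centred, with the length trend removed and within either prefix, 4 with the library mean and 5 with weights. The difference of the Treg effect gave 4 with weights. The difference of the allogeneic against syngeneic change gave 0 with only the groups compared, 1 median centred, 4 with the library mean, 4 with weights and 0 within either prefix.

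With the replicate label as a fixed replicate block, CD8 against CD4 Treg-treated gave 0 called genes; no other count moved by over 1.5 times under a block. In that fit Anxa1 in CD8 allogeneic against day 0 (adjusted p = 0.0539), S100a11 in CD4 syngeneic against day 0 (0.0529) and Anxa2 in CD4 allogeneic against syngeneic cells (0.0785) also lost their calls, and with the recipient as a random block S100a10 in CD8 syngeneic against day 0 gained one (0.048). Labels shared across treatments did not pair libraries, with r from -0.342 to 0.369 over 51 pairs (median 0.0195).

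Median centring shifted the median of all genes by 0.15 (CD8 allogeneic against day 0), -0.16 (CD4 syngeneic against day 0), 0.19 (CD8 syngeneic against day 0), 0.11 (CD4 allogeneic against syngeneic), 0.2 (CD4 Treg-treated against allogeneic), -0.22 (Treg against CD4 of Treg-treated recipients), -0.15 (CD8 against CD4 at day 0), 0.2 (CD8 against CD4 syngeneic), -0.12 (difference of the Treg effect) and -0.15 (difference of the allogeneic against syngeneic change). The share of all calls that were higher went, apart from the difference of the Treg effect, from 53.5 to 62.8%, 76.0 to 53.8%, 53.5 to 67.6%, 45.8 to 58.0%, 48.1 to 64.6%, 46.2 to 32.7%, 66.9 to 52.5%, 41.6 to 62.1% and 57.9 to 42.5% in that order. Quantile normalisation gave 57.7% in CD4 syngeneic against day 0 and 53.9% in CD8 against CD4 syngeneic cells. The unknown depth limits what can be said of low values, and groups of 2 libraries limit every comparison with day 0.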
